A study of Mus musculus with 6 samples.

Results

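Sodium-proton exchange, sodium bicarbonate cotransport, carbonic anhydrases, the sodium pump and water channel 1 were examined in the kidneys of mice with a Pkd1 mutation. The members were the 9 genes Slc9a3, Slc4a4, Car2, Car4, Car12, Car14, Atp1b1, Fxyd2 and Aqp1, taken by their symbols in the deposited table. They made up 9 of 23276 gene symbols and 25 of 54721 transcript rows. Of these 25 rows, 12 were RefSeq mRNAs, 1 was a RefSeq non-coding RNA and 12 were transcripts assembled from the reads.

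Total RNA of whole kidneys was sequenced from 6 mice, labelled as postnatal day 22. The text of the study gives a slightly younger age for these mice. The 3 SKO mice had the genotype KspCre; Pkd1 F/RC. The 3 DKO mice carried the same alleles and, in addition, loxP sites flanking both copies of the miR-17 to miR-92 cluster (F/F). All 6 mice therefore shared a hypomorphic germline Pkd1 allele (RC), a floxed Pkd1 allele (F) and Cre expressed under the Ksp promoter in renal tubules, and no mouse with intact Pkd1 was in the series. Ksp/Cre recombines DNA in tubule cells, whereas the RNA came from all cells of the kidney. The labels do not say that the kidneys of a group came from separate litters.

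The value given for each transcript is the authors' mean over all 6 kidneys, both groups together, as log2 CPM (reads of a transcript scaled to 1 common library total). It has no error, since no kidney has a value of its own in the table, and the depth of each library is unknown. The remaining columns hold the authors' own comparison of DKO with SKO and were not used here. All values below are therefore levels in these mutant kidneys as a whole. None is a difference between the genotypes, and no test was made. A level that is low in such bulk RNA can reflect fewer cells of a type or less RNA per cell, and these cannot be told apart.

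The proximal tubule recovers most of the bicarbonate that the glomerulus filters. An apical sodium-proton exchanger secretes acid into the lumen, where membrane-bound carbonic anhydrase turns bicarbonate into carbon dioxide. Cytosolic carbonic anhydrase re-forms bicarbonate inside the cell, which leaves across the basolateral membrane by sodium bicarbonate cotransport, while the sodium pump keeps cell sodium low and water follows through aquaporins. The study asked what the miR-17 to miR-92 cluster does in polycystic kidneys, so the sequences of its 6 mature miRNAs are shown to allow their seeds to be read against the 3′-UTRs of the 9 genes.

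The cluster lies on the plus strand of chromosome 14 (GRCm38, the build that UCSC calls mm10), between positions 115043684 and 115044496 from the first to the last of these mature miRNAs. The sequences are those of RefSeq, 5′ to 3′, with the seed (bases 2 to 8) in capitals.
mmu-miR-17-5p: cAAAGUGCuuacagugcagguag
mmu-miR-20a-5p: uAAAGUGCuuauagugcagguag
mmu-miR-18a-5p: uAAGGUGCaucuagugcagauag
mmu-miR-19a-3p: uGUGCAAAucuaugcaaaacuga
mmu-miR-19b-3p: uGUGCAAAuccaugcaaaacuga
mmu-miR-92a-3p: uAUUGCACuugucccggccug

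The 6 miRNAs held 4 different seeds, since miR-17 and miR-20a shared one and miR-19a and miR-19b shared another. A seed match is the 7-letter run in the transcript that pairs with all bases of the seed. In the longest annotated 3′-UTR of each gene, 3 matches were found, 1 in Slc4a4 and 2 in Aqp1. They are shown with 10 bases on either side, on the plus strand, with the match in capitals.
Slc4a4, miR-17 and miR-20a: caatcagtacGCACTTTcaggtagtct
Aqp1, miR-17 and miR-20a: atctccaaagGCACTTTgagggagagg
Aqp1, miR-18a: cttggggtagGCACCTTatctccaaag

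The Slc4a4 match lay at chr5:89239339-89239345, which is bases 3869 to 3875 of a 3′-UTR of 4183 bases and so near its far end. In Aqp1 the miR-17 and miR-20a match lay at chr6:55347218-55347224, bases 421 to 427 of a 3′-UTR of 1758 bases. The miR-18a match in Aqp1 lay at chr6:55347201-55347207, bases 404 to 410, and was the only one of the 3 that was followed by an A. No match to the miR-19 seed (TTTGCAC) or the miR-92a seed (GTGCAAT) was found in any of the 9 genes. The 3′-UTRs of the other 7 genes had 2628 bases in Slc9a3, 2488 in Car12, 1167 in Atp1b1, 680 in Car2, 378 in Car14, 293 in Fxyd2 and 239 in Car4, and none of them held any of the 4 matches.

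**Figure D1:**
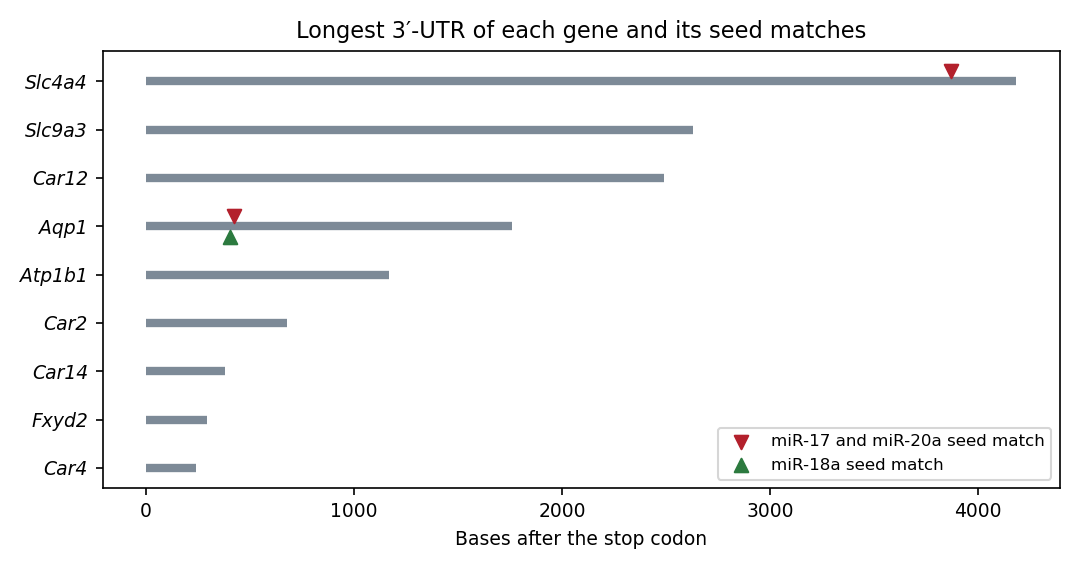
The longest 3′-UTR of each of the 9 genes is drawn to scale from the stop codon (x axis, bases), and triangles mark the matches to the seeds of the miR-17 to miR-92 cluster. The single match in Slc4a4 sits near the end of 4183 bases, the 2 matches in Aqp1 sit side by side at bases 404 to 427, and 7 genes have none.

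Across the 20997 mouse 3′-UTRs searched in the same way, GCACTTT was present in 11.8%, GCACCTT in 7.82%, TTTGCAC in 11.5% and GTGCAAT in 6.56%. At least 1 of the 4 was present in 28.9% of all 3′-UTRs and in 2 of the 9 genes. Per length, the 9 genes held 0.217 matches per kb of 3′-UTR, against 0.290 per kb over all genes. By seed, GCACTTT had 0.145 per kb against 0.0930 and GCACCTT 0.0724 against 0.0583, while TTTGCAC and GTGCAAT had none in the 9 genes. These densities rest on 3 matches. A match is only a run of letters in this window. It does not show that a miRNA binds there, and the lack of one shows only that these letters are not in the annotated sequence.

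All 9 genes were detected, taken here as a mean of at least 1 CPM in the highest row of the gene, which 13001 of 23276 genes reached. Above 100 CPM stood 6 of them, Slc4a4, Car2, Car12, Atp1b1, Fxyd2 and Aqp1, and the same 6 were above the 95th percentile of all genes. The median gene had 2.36 CPM.

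**Figure D2:**
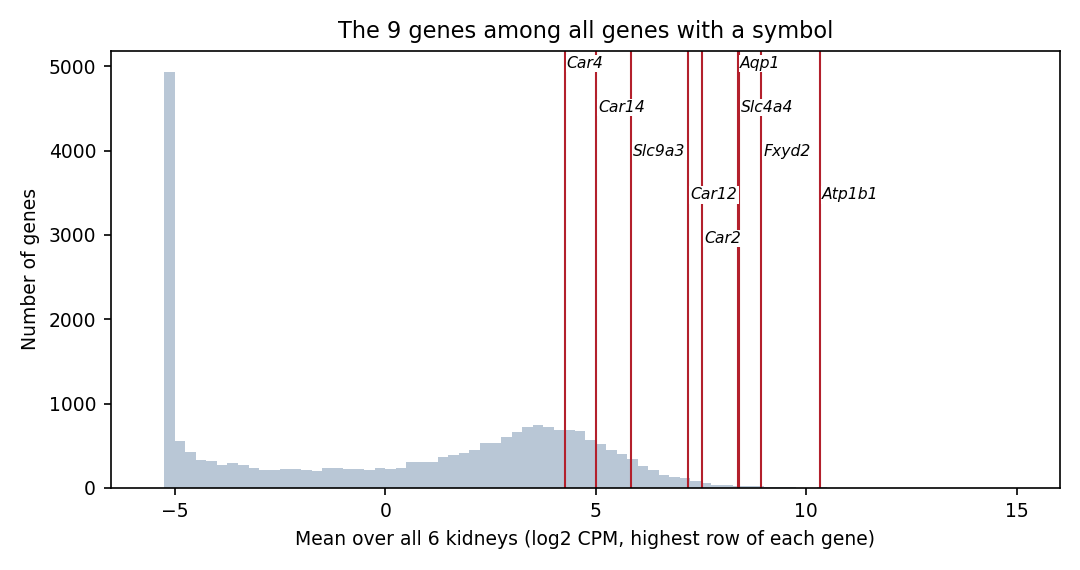
The histogram shows the mean level, in log2 CPM (x axis), of the highest row of each of the 23276 genes. Each vertical line marks 1 of the 9 genes. The tall bar at the left holds genes at or next to the lowest mean of the table, 0.0263 CPM, and the 9 lines lie in the right part of the distribution, from Car4 at 19.2 CPM to Atp1b1 at 1285 CPM.

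Longer transcripts give more reads at the same number of molecules, so folds and the order among the 9 genes were taken from CPM per kb, and the ranks by plain CPM, given beside them, favour long transcripts. CPM per kb is the CPM of the RefSeq mRNA row divided by the exonic length of the matching GENCODE transcript. On this scale Fxyd2 stood first at 764 CPM per kb and Atp1b1 followed at 498. Aqp1 had 127 CPM per kb and Car2 had 103. Slc4a4, at 41.6 CPM per kb, and Car12, at 39.6, were close to each other. Car14 had 18.9 CPM per kb, Car4 had 15.3 and Slc9a3 had 10.5. The median over the 20073 genes with a length was 1.42 CPM per kb, and 4.06 over those with at least 1 CPM. The gaps between neighbours in this order ran from 1.05-fold, between Slc4a4 and Car12, to 3.93-fold, between Atp1b1 and Aqp1. The spread over kidneys is not known, so whether neighbours differ beyond it was not tested. Slc4a4 and Car12 changed places when the coding length was used and stood 2.003-fold apart with mean transcript lengths, and Car14 and Car4 did so when the mean length of all coding transcripts of the gene was used.

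Slc9a3 encodes NHE3, the apical sodium-proton exchanger of the proximal tubule, and lies at chr13:74121457-74169442 on the plus strand. Its 4 rows spanned more than those of any other member, from 10.03 CPM to 57.4 CPM, a ratio of 5.73. The highest of them was an assembled transcript, while the RefSeq mRNA stood at 26.1 CPM and another assembled row at 26.7 CPM. By its highest row it ranked 1378th, above 94.1% of genes. Per kb, which uses its RefSeq mRNA row, it ranked 2697th, above 86.6%. The GENCODE transcript matched to its RefSeq mRNA had 2490 bases in 16 exons and was coding throughout, with no UTR annotated, which bears on its value per kb.

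Of other sodium-proton exchangers, Slc9a8 had 3.45 CPM per kb, 3.03-fold below Slc9a3. This fold was 1.16 with coding lengths, 1.80 with mean transcript lengths and 6.69 with the highest row of each gene. For that last value the CPM of the highest row, assembled in Slc9a3, was divided by the length matched to the RefSeq mRNA. Slc9a2 had 1.94 CPM per kb, Slc9a4 had 1.38, and Slc9a5, Slc9a7 and Slc9a9 had between 0.379 and 0.437. Of the scaffold proteins that hold NHE3 at the apical membrane, Slc9a3r1 (NHERF1) had 28.2 CPM per kb and Slc9a3r2 (NHERF2) had 12.4. Against the RefSeq mRNA of Slc9a3 they stood 2.69-fold and 1.19-fold higher. These folds rose to 4.85 and 2.50 with coding lengths and to 3.67 and 1.95 with mean transcript lengths. With the highest row of Slc9a3 over the same length, the exchanger had 23.1 CPM per kb. The fold of Slc9a3r1 then fell to 1.22 and Slc9a3r2 was below the exchanger, at 0.539 of it.

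Slc4a4 encodes NBCe1, the electrogenic sodium bicarbonate cotransporter of the basolateral membrane, and spans chr5:88886818-89239653 on the plus strand. It had 8 rows, more than any other member, which ran from 225 CPM to 337 CPM. Its 3 RefSeq mRNAs had 329.6, 329.6 and 328.7 CPM. The GENCODE transcripts matched to these mRNAs had 7931, 3269 and 3494 bases. The 2 shorter ones lay wholly within the exons of the long one and shared 3170 bases with each other. The rows had nearly the same CPM although these lengths differed, and the reason was not tested. Because the models share exons, the 8 rows, which add up to 2407 CPM, may hold the same reads more than once and were not summed for the level of the gene. The highest row ranked 71st, above 99.7% of genes. Per kb of the long model, which includes its 3′-UTR of 4183 bases with the seed match shown above, Slc4a4 ranked 614th, above 96.9% of genes. Its level depended on this length. It was 41.6 CPM per kb with the long model, 80.2 with the mean length of its coding transcripts and 102 with the coding length.

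In the bicarbonate transporter family 9 of 10 genes had at least 1 CPM, and Slc4a4 made up 59.2% of the summed CPM per kb. The next was Slc4a9, a transporter of intercalated cells, with 8.94 CPM per kb, 4.65-fold below Slc4a4, or 10.3-fold with coding lengths and 8.31-fold with mean transcript lengths. The anion exchanger Slc4a2 had 5.78 CPM per kb, Slc4a11 had 5.29 and Slc4a1, the anion exchanger of red cells and acid-secreting intercalated cells, had 5.08. Slc4a7, Slc4a8, Slc4a3 and Slc4a5 had between 0.732 and 1.09 CPM per kb, and Slc4a10, known from brain, stood at 0.0499 CPM. Between the 2 steps of sodium-coupled transport, the cotransporter Slc4a4 was 3.97-fold above the exchanger Slc9a3 per kb. This fold depended on the models and rows, being 9.72 with coding lengths, 10.5 with mean transcript lengths and 1.84 with the highest row of each gene. Both highest rows were assembled ones with no length of their own, so the RefSeq-matched lengths were used for them.

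The 4 carbonic anhydrases among the members differed in where the enzyme sits. Car2 is the cytosolic enzyme, Car4 is held at the cell surface by a lipid anchor, and Car12 and Car14 span the membrane with the enzyme facing outward. Car2 (chr3:14886273-14900770, plus strand) had 184 CPM in its RefSeq mRNA and 85.6 CPM in an assembled row, and ranked 211th, above 99.1% of genes. Car12 (chr9:66713686-66766845, plus strand) had 147.2 CPM in its RefSeq mRNA and 147.1 CPM in its assembled row, and ranked 308th. Car14 (chr3:95897768-95904691, minus strand) had 32.3 CPM in its RefSeq mRNA and 11.0 CPM in an assembled row, and ranked 2841st, above 87.8% of genes. Car4 (chr11:84957786-84966044, plus strand) was listed in 1 row with 19.2 CPM and ranked 4761st, above 79.5% of genes.

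Per kb, Car2 was 2.59-fold above Car12 and 6.73-fold above Car4 (1.70 and 11.2 with coding lengths), and Car14 was 1.24-fold above Car4 (0.979 with mean transcript lengths). The membrane-bound enzymes Car4 and Car14, whose transcripts have 1256 and 1709 bases, thus stood above 90.8% and 92.7% of genes per kb. The exons of Car14 overlapped those of Aph1a, on the opposite strand, over 445 bases, or 17.5% of the exonic bases of Car14. Aph1a had 47.1 CPM, and whether the counting used strand is not given in the sources used here, so the level of Car14 may hold reads of Aph1a.

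Of 16 carbonic anhydrase genes 11 had at least 1 CPM. Car2 made up 43.0% of their summed CPM per kb, Car12 16.6%, Car14 7.91% and Car4 6.39%. With coding lengths the share of Car12 was 25.2% and that of Car4 3.82%. One gene outside the members came between them, the lipid-anchored Car15, with 33.9 CPM per kb (14.2%), which was 1.17-fold below Car12 (3.10-fold with coding lengths) and 1.80-fold above Car14. Car3 followed with 14.0 CPM per kb and the mitochondrial Car5b with 9.21. With coding lengths these also came between the members, Car5b (33.2) above Car14 (31.8) and Car3 (30.0) above Car4 (20.9). Car8, which lacks enzyme activity, had 1.56 CPM per kb, and Car13, Car7 and Car5a had between 0.672 and 0.948. Car9 and Car11 lay just under the detection level, at 0.995 and 0.904 CPM. Car1, the abundant enzyme of red cells, had 0.0361 CPM per kb, whereas the globins Hba-a1 and Hbb-b1 had 104.2 and 74.9 CPM per kb.

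**Figure D3:**
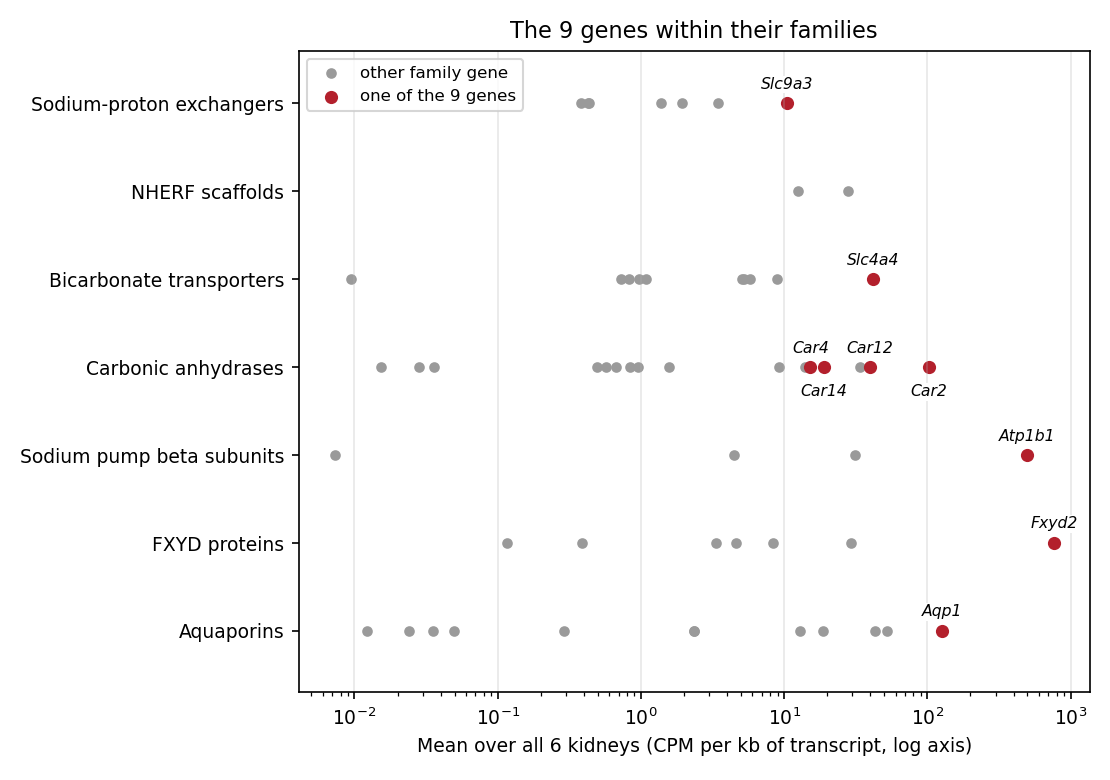
Each point is 1 gene that is reported here, placed by its mean CPM per kb (x axis, log scale) in the row of its family, with the 9 members in red. The member stands to the right of the other genes drawn in its row for the exchangers, the bicarbonate transporters, the beta subunits, the FXYD proteins and the aquaporins, while Car15 falls between Car12 and Car14 among the 4 carbonic anhydrases.

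The sodium pump consists of a catalytic alpha subunit, a beta subunit that brings it to the membrane, and, in the kidney, a small FXYD protein that tunes its affinity for sodium and potassium. Atp1b1, the beta subunit, lies at chr1:164437109-164458355 on the minus strand and had 1285 CPM in an assembled row and 1284.6 CPM in its RefSeq mRNA. It ranked 8th of 23276 genes by CPM and 12th per kb. Its exons overlapped those of Nme7, on the opposite strand, over 575 bases, or 18.7% of its own exonic bases, but Nme7 had only 7.06 CPM. Fxyd2, the gamma subunit, lies at chr9:45399669-45410278 on the plus strand. Its RefSeq non-coding row had 488 CPM and its 2 mRNA rows 482.7 and 481.1 CPM. The non-coding model shared 410 bases with the coding one, so these rows too may hold the same reads. With a transcript of 632 bases, of which 195 are coding, Fxyd2 moved from 35th by CPM to 5th per kb.

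Of the 4 beta genes 3 had at least 1 CPM. Atp1b1 made up 93.3% of their summed CPM per kb and stood 16.0-fold above Atp1b3, at 31.1 CPM per kb, while Atp1b2 had 4.48.

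Fxyd2 was 1.53-fold above Atp1b1 per kb. Within the FXYD family 6 of 7 genes had at least 1 CPM, and Fxyd2 made up 94.3% of the summed CPM per kb. Fxyd4, the FXYD protein of the collecting duct, had 29.2 CPM per kb, 26.1-fold less than Fxyd2 (41.1-fold with coding lengths). Fxyd5 had 8.34 CPM per kb, Fxyd1 had 4.58, Fxyd6 had 3.34 and Fxyd3 had 0.388.

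Aqp1, the water channel of the proximal tubule and thin descending limb, lies at chr6:55336432-55348555 on the plus strand and was listed in 1 row. It had 332 CPM, ranked 74th by CPM and 171st per kb, and stood above 99.1% of genes per kb. Of 12 aquaporin genes 7 had at least 1 CPM, and Aqp1 made up 49.0% of their summed CPM per kb. The collecting duct channels Aqp2 and Aqp3 had 52.2 and 42.9 CPM per kb, 2.42-fold and 2.95-fold below Aqp1, or 4.52-fold and 4.76-fold with coding lengths. Aqp6, known from intercalated cells, had 18.7 CPM per kb and Aqp4 had 12.8, while Aqp7 and Aqp11 had 2.36 and 2.33. Both orders turned with coding lengths, with Aqp4 at 66.7 against 43.6 in Aqp6 and Aqp11 at 10.7 against 6.54 in Aqp7. They also turned with mean transcript lengths, at 37.1 against 22.1 and 3.76 against 2.55. Mip and Aqp12 were listed at the lowest mean of the table, a value that 4617 rows shared.

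**Figure D4:**
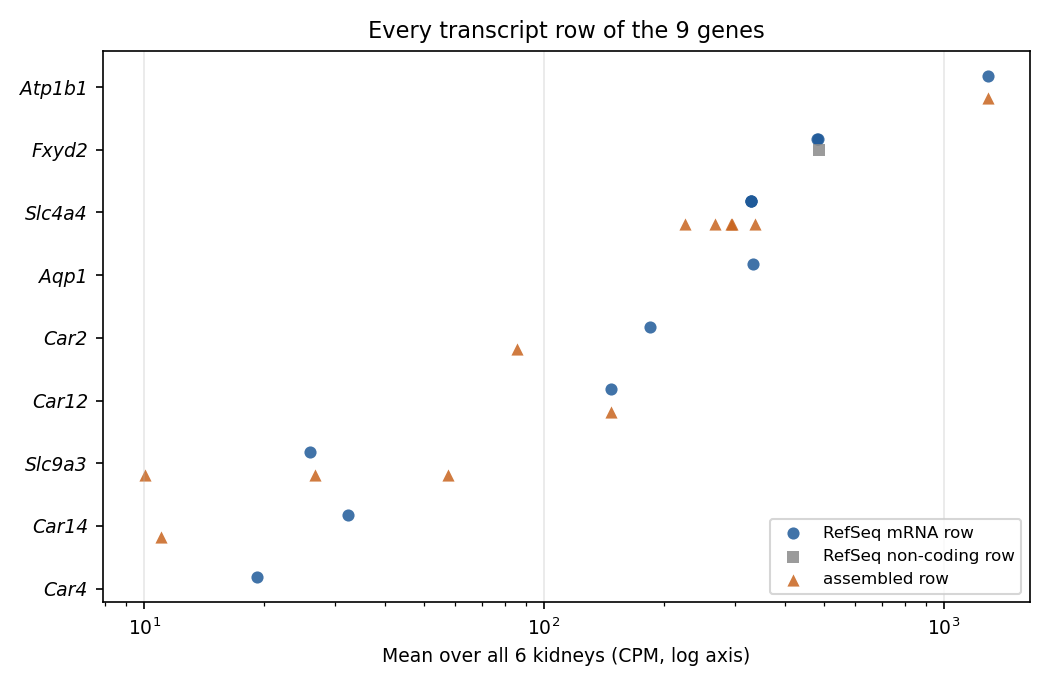
Each symbol is 1 of the 25 transcript rows of the 9 genes, placed by its mean CPM over all 6 kidneys (x axis, log scale), with circles for RefSeq mRNAs, a square for the RefSeq non-coding RNA and triangles for assembled transcripts. The rows of Atp1b1, Fxyd2 and Car12 fall on nearly the same value, while those of Slc9a3, Car14 and Car2 are spread over ratios of 5.73, 2.92 and 2.15.

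The choice of row mattered for some genes and not for others. The rows of Slc9a3, Car14 and Car2 differed by more than 1.5-fold, those of Slc4a4 by just under 1.5-fold, and those of Atp1b1, Car12 and Fxyd2 by far less, whereas Car4 and Aqp1 had a single row each. An assembled row was the highest in 3 genes, Slc9a3, Slc4a4 and Atp1b1.

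The tissue matched its label by its markers. The 7 proximal tubule markers ran from 81.8 CPM in Slc22a6 to 4695 CPM in Kap, and the 3 markers of the thick ascending limb from 206 CPM in Kcnj1 to 1022 CPM in Umod. Distal convoluted tubule markers ran from 3.14 CPM in Pvalb to 169 CPM in Slc12a3, principal cell markers from 14.1 CPM in Avpr2 to 77.7 CPM in Aqp2, and intercalated cell markers from 17.7 CPM in Slc26a4 to 41.0 CPM in Atp6v1g3. Podocyte, endothelial and macrophage markers lay between 4.49 and 52.7 CPM, and fibroblast markers between 44.8 CPM in Pdgfrb and 184 CPM in Col1a2. Of markers of other organs, Alb had 13.4 CPM, and Myh6, Ckm and Gfap had at most 0.198 CPM. The targeted genes, Pkd1 at 31.8 CPM and Mir17hg, the host transcript of the cluster, at 4.21 CPM, cannot check the labels, because only a mean over both genotypes was used. Several of the 9 genes are made by more than 1 cell type of the kidney, such as Atp1b1 along the whole tubule and Car2 in intercalated cells as well as the proximal tubule, and the share of each cell type in these levels was not tested.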

How the data were processed

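Kidney RNA of 3 SKO and 3 DKO mice was sequenced by the authors with a stranded total RNA kit, and reads were mapped to mm10. The submitters' processing notes name bcl2fastq 1.8.4, TopHat2 2.0.12, Cufflinks, featureCounts of Subread 1.4.6 and edgeR 3.2.4. The deposited log2 values give the authors' mean level in CPM, on a log2 scale, of each of 54721 transcripts over all 6 libraries. The authors' own comparison (log2 fold change, likelihood ratio, p-value and false discovery rate) was not used, nor was the row order. The planned test of DKO against SKO was not made, since 0 columns give values of single samples. No depth, interval or SD can be given.

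Log2 CPM was converted to CPM. The highest row stood for a gene. For values per kb, the RefSeq mRNA row with the highest mean was divided by the exonic length of its GENCODE M21 transcript (GRCm38), found for 98.1% of 20470 genes. Seeds were read from the RefSeq miRNA sequences, and their matches were searched for in GENCODE 3′-UTRs by a script tested on simulated sequences. Named genes were all 9 members with every row, family genes with at least 1 CPM and the ends of each marker list, and a few undetected family genes were named after their values were seen. Some family genes are not reported here. Members and lists were chosen with earlier results of these data known. Python 3.11.15, numpy 2.4.6, pandas 2.3.3 and matplotlib 3.10.9 were used. Other rows, lengths, ranked sets and detection levels were tried as alternatives.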

Additional observations from a re-analysis of the deposited data

How the results depend on the processing

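The order of the 9 genes rests on the division by length and on the row taken for a gene. Of the 9 places, 1 was kept with CPM and no division by length. That setting also took highest rows in place of RefSeq mRNA rows. In undivided mRNA rows Aqp1 (332 CPM) stood above Slc4a4 (329.6) and Car14 (32.3) above Slc9a3 (26.1), the reverse of the highest rows. With the coding length 7 were kept, and also 7 with the mean GENCODE transcript length, which was chosen after seeing the data. With its highest row over the same length, Slc9a3 (23.1 CPM per kb) stood above Car14 (18.9) and Car4 (15.3). All 9 genes stayed at or above 2 CPM in their highest row. Slc9a3 depended most on the row, with 57.4 CPM in its highest, 26.4 CPM in its median and 10.03 CPM in its lowest. Folds between genes with these lengths and with the highest rows, also chosen after seeing the data, stand beside those that moved by over 1.5 times or turned. The 3 seed matches were the same in the 3′-UTR of the RefSeq match, also added after seeing the data, although that of Slc9a3 then had 0 bases. DESeq2, leaving out a replicate and the fit with no filter on low counts were not run, because they need counts of each sample. No paired analysis was possible because no result comes from a test. Library depth is unknown, so low means cannot be given a limit.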
